A study of Canis lupus familiaris with 7 samples.

Results

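The genes described here handle heme and iron in the dog left ventricle, with the heme-binding protein HEBP1 at their head. They are HEBP1, the heme oxygenases HMOX1 and HMOX2, the ferritin chains FTH1 and FTL, the transferrin receptor TFRC, the heme synthesis enzymes ALAS1 and FECH, myoglobin (MB) and the iron exporter ferroportin (SLC40A1). All 10 genes, of 15115 that the array names, were found through every probe set (a short group of probes aimed at 1 transcript) whose annotation gives that gene symbol alone. This gave 19 of the 42924 probe sets that are not controls of the maker. HEBP1 was selected on its measured difference, since 1 of its probe sets had been called higher in low salt in earlier work on these same values, so that difference is described without a test.

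The samples are left ventricle RNA of adult male mongrel dogs of 25 to 28 kg, read on 1-colour Affymetrix canine arrays. The low-salt group holds 4 arrays (numbered 1 to 4) from dogs fed 0.5% sodium chloride for 2 weeks. The control group holds 3 arrays (numbered 1, 3 and 4), for which the sources used here give no diet and no feeding time. The design text puts 10 dogs on the diet, against 4 low-salt arrays, and does not state whether each array is 1 animal, a pool or part of a larger set. The p-values therefore cover only the spread among these samples, which may be technical. The question is what a low-salt diet changes among the transcripts of the heart.

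Heme is an iron-holding ring that cells build in a short chain of enzymes. ALAS1 makes the first intermediate in the mitochondrion and FECH inserts the iron at the end. Heme oxygenases open the ring again and free its iron, which ferritin stores in a shell of heavy and light chains. TFRC takes up transferrin-bound iron from the blood and ferroportin lets iron out. Heart muscle is rich in heme, much of it in myoglobin and in the cytochromes of its mitochondria.

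Values are the deposited intensity of a probe set, and differences are low salt minus control on the scale of log2(intensity + 16) after quantile normalization. That scale understates changes of dim probe sets. Of the 19 probe sets, 17 passed the filter on dim signal and were tested, while the HMOX1 probe set and 1 of TFRC were too dim. Of the 17, 1 passed an adjusted p of 0.05 by limma, the HEBP1 probe set for which the gene was chosen, against 0.346% of all 28616 probe sets tested, and nothing is read from that count. Outside HEBP1, 0 of 15 passed, by limma and equally by the methods' t-test, and 0 had an unadjusted p under 0.05 in either test. Of all 28616 tested probe sets, 11% had one by limma and 2871 by the methods' t-test. The differences of the 15 ran from -0.88 to 0.31 with a median of -0.03, beside a median of 0.04 over all tested probe sets.

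**Figure D1:**
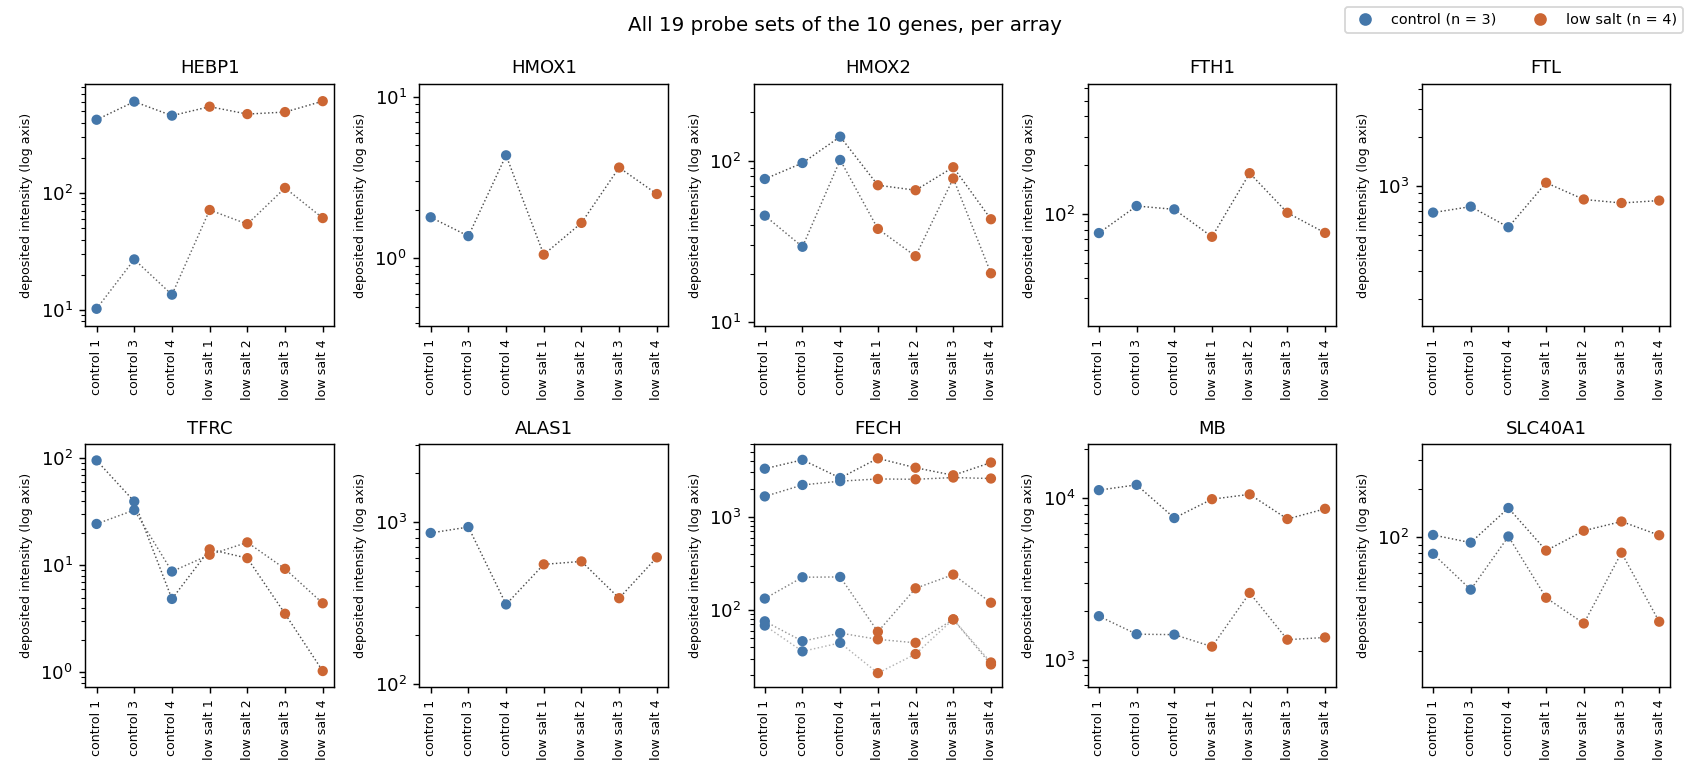
Deposited intensity (log axis, a range of its own for each gene) of all 19 probe sets on the 3 control and 4 low-salt arrays, with the probe sets of a gene joined by dotted lines. In HEBP1 the dimmer probe set is higher on all 4 low-salt arrays and the brighter one is level, and in HMOX2 and SLC40A1 both probe sets are highest on control 4 among controls and on low-salt 3 among low-salt arrays.

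The labelled tissue was borne out by cardiomyocyte markers, of which 12 of 15 are named on the array and 12 were tested, with a lowest deposited intensity of 1367, in MYBPC3. The medians of the arrays spanned 0.93 (log2). Control 4 and low-salt 3 had the highest medians and deviated from their group means together (correlation 0.43 across tested probe sets), so member differences are also given without both. Of 4 ratios of 3' to 5' control probe signal, a measure of RNA integrity, both GAPDH ratios lay apart between the groups and both actin ratios overlapped. The GAPDH ratios were 2.43 to 2.78 and 22.7 to 40.9 in controls, and 2.03 to 2.41 and 14.5 to 22.6 in low salt. Each had an exact permutation p (two-sided) of 0.0571, and 35 splits can give none smaller. The labels give no batch.

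HEBP1 encodes a small cytosolic protein that binds heme and other tetrapyrroles, and from which a chemotactic peptide is cut. Its dimmer probe set read 10.2, 27.1 and 13.5 on controls 1, 3 and 4. On low-salt arrays 1 to 4 it read 71.6, 54.2, 111 and 61.1. The lowest low-salt value is thus above the highest control value, and the low-salt values lie in a narrower band on the log scale. The normalized level was 6.61 ± 0.15 (SD, n = 4) in low salt against 4.88 ± 0.47 (SD, n = 3) in controls, a difference of 1.73 or 3.33-fold. That fold is of intensities with the offset added, while the as-deposited mean was 4.39 times that in controls. The control mean alone would have fallen under the filter on dim signal. The size of the difference therefore depends on the offset, as given below. Without control 4 and low-salt 3 the difference was 1.54, and over single arrays left out it ran from 1.59 to 2.01.

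The brighter HEBP1 probe set showed no such step. It read 424, 605 and 459 in controls 1, 3 and 4, and 548, 474, 493 and 611 in low-salt 1 to 4. Every low-salt value fell between the lowest and the highest control on the normalized scale. The difference was 0.01 ± 0.20 (SE), with a 95% interval from -0.42 to 0.43 and a limma adjusted p of 0.994. That interval ends far below the difference of the dimmer probe set. Averaged over both probe sets, HEBP1 differed by 0.87, and this mean includes the probe set that was chosen for its difference. The stretch of transcript that each probe set reads was not analysed here. In RNA from whole tissue, a change in the number of cells that express a gene and a change in RNA per cell cannot be told apart.

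**Figure D2:**
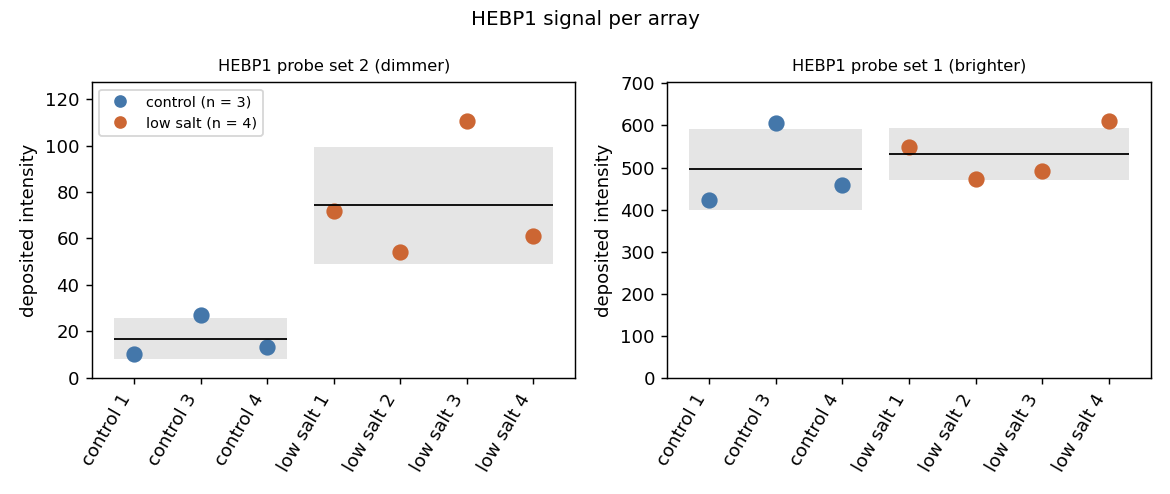
Deposited intensity per array of both HEBP1 probe sets, with the group mean (line) and 1 SD (grey band). The left one lies at 54.2 to 111 in low salt against 10.2 to 27.1 in controls, while the right one spans 474 to 611 against 424 to 605.

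Likeness to the dimmer HEBP1 probe set was measured by Pearson correlation over the 7 arrays, as a description. Among 19653 other tested probe sets with 1 gene symbol, 166 had r above 0.9, and the 5 highest were C1QB (0.99), HNMT, EMILIN1, LOC606831 and ARFGAP3 (0.98 each). All 5 share the step between the groups that HEBP1 has. This follows from the selection, since the HEBP1 probe set was chosen for that step and these genes for their likeness to it. Nothing is read from the shared step or from the p of C1QB given next. The control mean of EMILIN1, 4.36, alone would have fallen under the filter on dim signal. C1QB is a chain of the first complement component and a macrophage marker, and it differed by 1.01 ± 0.26 (SE, limma adjusted p = 0.165). Marker lists are given on the normalized scale only, by the brightest probe set of each gene. Sign counts can move with the scaling, as given below for the pathway lists. Over the macrophage list, 14 of 14 markers were tested, and 12 stood above 0 and 2 below, where 56.0% of all genes stood above 0. The median difference was 0.29. At an unadjusted p under 0.05 stood 4 higher (C1QB, FCGR1A, MARCO and C1QC) and 0 lower, where 5.57% of all 11381 genes were higher and 4.89% lower. The control mean of MARCO, 4.48, alone would have fallen under the filter on dim signal, and C1QB was picked for its likeness to HEBP1. Nothing is therefore read from this count. The summed deposited intensity of the macrophage list was 3424 to 5760 in controls and 4575 to 5560 in low salt, so the sums overlap. CD163 differed by 0.22 and CD68 by 0.42. The median difference was 0.56 for adipocyte markers (3 of 4 tested above 0), 0.24 for neutrophil markers (2 of 4) and 0.16 for smooth muscle markers (5 of 7). It was -0.06 for fibroblast (3 of 8), -0.07 for endothelial (2 of 8) and -0.01 for cardiomyocyte markers (6 of 12). CNN1, a smooth muscle actin-binding protein with the largest difference in its list, differed by 1.19 ± 0.35 (SE, limma adjusted p = 0.243). Its groups did not overlap, which was so, in this direction, for 5.66% of all genes. Its control mean of 4.64 alone would have fallen under the filter on dim signal. The 2 smooth muscle markers below 0 were MYH11 (-0.31) and ACTA2 (-0.07). The summed intensity ran from 945 to 3148 in controls and 1754 to 4043 in low salt for adipocyte markers, from 209 to 574 and 221 to 647 for neutrophil markers, and from 860.4 to 1533 and 1184 to 1691 for smooth muscle markers. The part of RNA from these cell types and of the GAPDH ratios in the HEBP1 difference was not tested.

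The heme oxygenases gave little signal. HMOX1, the inducible form, was read by 1 probe set, at 1.80, 1.37 and 4.34 in controls and 1.06, 1.66, 3.64 and 2.50 in low salt. These values are too dim for a test, and no level or change of HMOX1 can be read from them. HMOX2, the constitutive form, was read by a pair of probe sets. The brighter gave 77.0, 96.6 and 141 in controls 1, 3 and 4 and 70.4, 65.6, 91.0 and 43.4 in low-salt 1 to 4. Its as-deposited mean was 0.65 of that in controls, while the normalized difference was -0.24 ± 0.29 (SE, 95% interval -0.86 to 0.39, limma adjusted p = 0.806). The other HMOX2 probe set had its highest values on control 4 (100.9) and low-salt 3 (77.6), the arrays of highest median, and differed by 0.01 ± 0.34 (SE). With the values as deposited these 2 differences were -0.53 and -0.39, where the median over all tested probe sets was -0.17 against 0.04 after normalization. The brighter one was -0.47 without control 1 and -0.07 without control 4.

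Of the ferritin chains, the light chain showed separate groups and a small difference. FTL read 685, 746 and 556 in controls 1, 3 and 4, and 1048, 826, 785 and 813 in low-salt 1 to 4. The lowest low-salt value thus exceeded the highest control, which was so, in this direction, for 5.13% of all tested probe sets. The normalized levels were 9.46 ± 0.14 (SD, n = 3) and 9.73 ± 0.17 (SD, n = 4), a difference of 0.28 ± 0.18 (SE, 95% interval -0.11 to 0.66) that did not pass (limma adjusted p = 0.603). It stayed above 0 in all 18 alternatives, from 0.19 to 0.81, and was 0.19 without control 4 and low-salt 3. The 0.81 came with array medians set equal, where the median over all tested probe sets was 0.26 against 0.04. All alternatives reuse the same arrays, so nothing is read from the kept sign.

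The heavy chain, FTH1, carries the enzyme site that oxidises iron on its way into the shell. Its 1 probe set read 76.1, 112 and 107 in controls 1, 3 and 4, and 72.1, 178, 102 and 76.2 in low-salt 1 to 4. Only low-salt 2 lay above all controls. The difference of 0.31 ± 0.32 (SE, limma adjusted p = 0.760) fell to 0.07 without that array. Ferritin genes have many processed copies in mammalian genomes, and the FTL probe set carries the maker's mark for probes shared with other sequences, so its signal may include such copies.

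TFRC, the door for transferrin iron, had the lowest difference of the tested probe sets and the widest spread. Its tested probe set read 95.5, 39.5 and 4.85 in controls 1, 3 and 4, and 14.1, 11.7, 3.53 and 1.03 in low-salt 1 to 4. Controls 1 and 3 lay above every low-salt array, and control 4 lay among them. The low-salt mean of 4.66 alone would have fallen under the filter on dim signal, so this probe set was tested only through its controls. The difference was -0.88 ± 0.53 (SE, 95% interval -2.02 to 0.26, limma adjusted p = 0.574). It was -0.34 without control 1, where it was too dim to test, -1.51 without control 4 and -1.35 without control 4 and low-salt 3. The other TFRC probe set, too dim to test, read 24.4, 32.8 and 8.75 in controls 1, 3 and 4, and 12.6, 16.4, 9.27 and 4.42 in low-salt 1 to 4, with a difference of -0.18.

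The order of the arrays in TFRC was nearly that of the actin 5' control probe set AFFX-Cfa-actin-5_s_at, a comparison chosen after the values were seen. This control reads the far end of the actin transcript from where labelling starts and gave 83.5, 38.1 and 3.10 in controls 1, 3 and 4, and 13.2, 12.002, 2.54 and 4.58 in low-salt 1 to 4. Its 3' partner gave 11002 to 21483 on the 7 arrays. Over the 7 arrays, the TFRC probe set and the log2 of the actin 5' signal had a Pearson r of 0.98 and a Spearman's rho of 0.89, given as a description with no test since the likeness prompted it. The r was 0.98 without controls 1 and 3, the arrays farthest from the median. With each array taken as its deviation from its group mean, r was 0.98. The other TFRC probe set had an r of 0.69 (0.72 for deviations). The part of this signal in the TFRC difference was not tested.

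ALAS1, the rate-limiting enzyme of heme synthesis outside red cells, was read by 1 probe set. It gave 856, 931 and 309 in controls 1, 3 and 4, and 547, 571, 338 and 605 in low-salt 1 to 4. Control 4 and low-salt 3 were the lowest of their groups, and controls 1 and 3 the highest of all. The difference was -0.41 ± 0.32 (SE, 95% interval -1.10 to 0.29, limma adjusted p = 0.676). It was -0.90 without control 4, -0.15 without control 3 and -0.75 without control 4 and low-salt 3, and 0.12 with array medians set equal, where the median over all tested probe sets was 0.26 against 0.04. Its r with the actin 5' signal was 0.88 with a rho of 0.79, r was 0.71 without controls 1 and 3, and it was 0.88 for deviations from the group means.

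FECH, the last enzyme of the chain, was read by 5 probe sets, and the differences ran from -0.30 to 0.18 with limma adjusted p from 0.736 to 0.963. The brightest read 3293, 4100.0 and 2617 in controls 1, 3 and 4, and 4254, 3373, 2801 and 3836 in low-salt 1 to 4. Its difference was -0.03 ± 0.14 (SE), with a 95% interval from -0.33 to 0.27. The second brightest read 1661, 2204 and 2421 in controls and 2557, 2535, 2647 and 2584 in low salt, with a normalized difference of 0.17 ± 0.16 (SE). As deposited, its 4 low-salt values were all above the controls and close together, but on the normalized scale only low-salt 3 was above all controls.

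This second FECH probe set ran against the actin 5' signal. Its r was -0.92 and its rho -0.96, r was -0.78 without controls 1 and 3, and it was -0.93 for deviations from the group means. The relation was computed for all 19 probe sets, and the ones named were picked by their r. The brightest FECH probe set had an r of 0.43. The 3 dimmer ones differed by -0.30, 0.18 and 0.16, and the last of these was -0.13 without control 4 and low-salt 3. With single arrays left out, the second brightest was 0.03 without control 1 and 0.33 without control 4, and the third brightest was -0.59 without control 1 and -0.02 without low-salt 1.

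**Figure D3:**
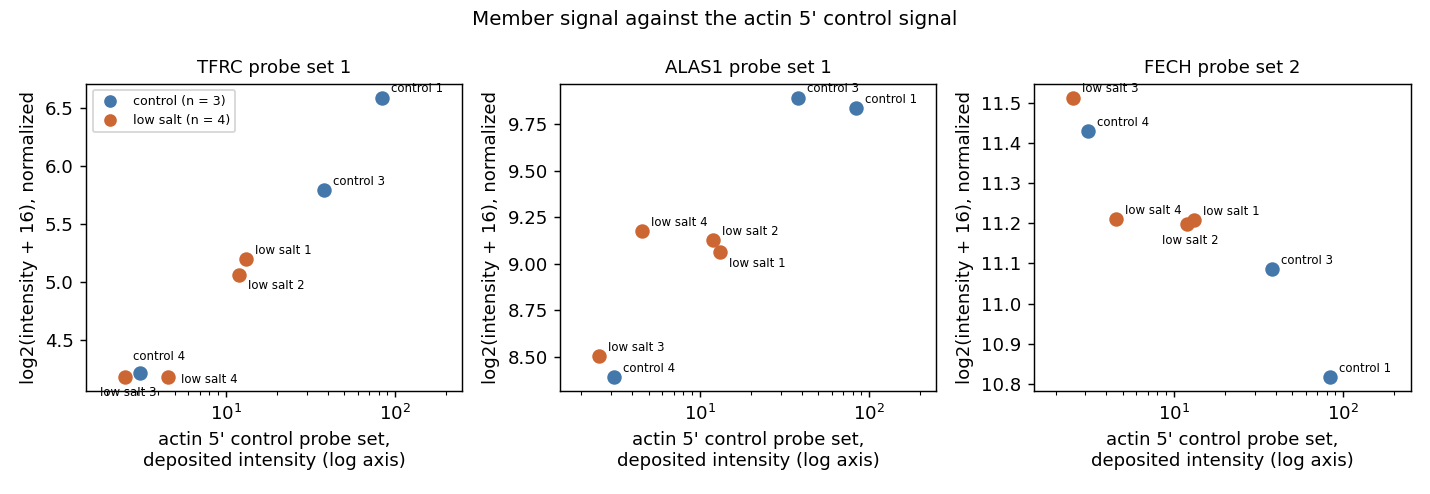
Normalized log2 signal of TFRC, ALAS1 and the second FECH probe set against the deposited intensity of the actin 5' control probe set (log axis), 1 point per array. TFRC and ALAS1 rise with the control signal (r = 0.98 and 0.88) and this FECH probe set falls (r = -0.92), with control 4 beside low-salt 3 in all 3 panels.

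Myoglobin is the oxygen-binding heme protein of heart and red muscle, and its brighter probe set had the narrowest range of the 17 tested. It read 11172, 12046 and 7510.2 in controls 1, 3 and 4, and 9825, 10522, 7406 and 8563 in low-salt 1 to 4. On the normalized scale the 7 arrays spanned 0.20, and 0.26% of all tested probe sets spanned less. Its SDs there were 0.09 in controls and 0.07 in low salt. Some other very bright probe sets were as tight, such as MYH7 (0.07 and 0.04) and RYR2 (0.03 and 0.06), while TNNI3 was wider (0.13 and 0.16). The narrow range is thus not particular to myoglobin. As deposited, the values of this MB probe set ran from 7406 to 12046. Quantile normalization sets the same distribution on every array, and its part in the narrow range was not tested. The difference was -0.05 ± 0.09 (SE), and its 95% interval ran from -0.25 to 0.15 (limma adjusted p = 0.883). It turned to 0.27 with array medians set equal, where the median over all tested probe sets was 0.26. The other MB probe set had 1 high array, low-salt 2, at 2588 against 1205 to 1373 on the other low-salt arrays and 1429 to 1859 in controls, and differed by -0.18 ± 0.23 (SE). That difference was -0.41 without low-salt 2 and -0.05 without control 1 or without low-salt 1.

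SLC40A1, the only known cellular iron exporter, differed by 0.09 ± 0.26 (SE, 95% interval -0.48 to 0.66, limma adjusted p = 0.931) in its brighter probe set. This read 104, 92.9 and 152 in controls 1, 3 and 4, and 82.9, 110, 125 and 103 in low-salt 1 to 4. The other one read 79.2, 47.6 and 101.4 in controls and 42.4, 29.4, 80.5 and 30.1 in low salt, and differed by -0.20 ± 0.30 (SE), or -0.34 without control 3 and -0.10 without control 4. The signs of the 2 probe sets thus differ, and their mean over the gene was -0.06. Without control 4 and low-salt 3 the differences were 0.28 and -0.18.

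**Figure D4:**
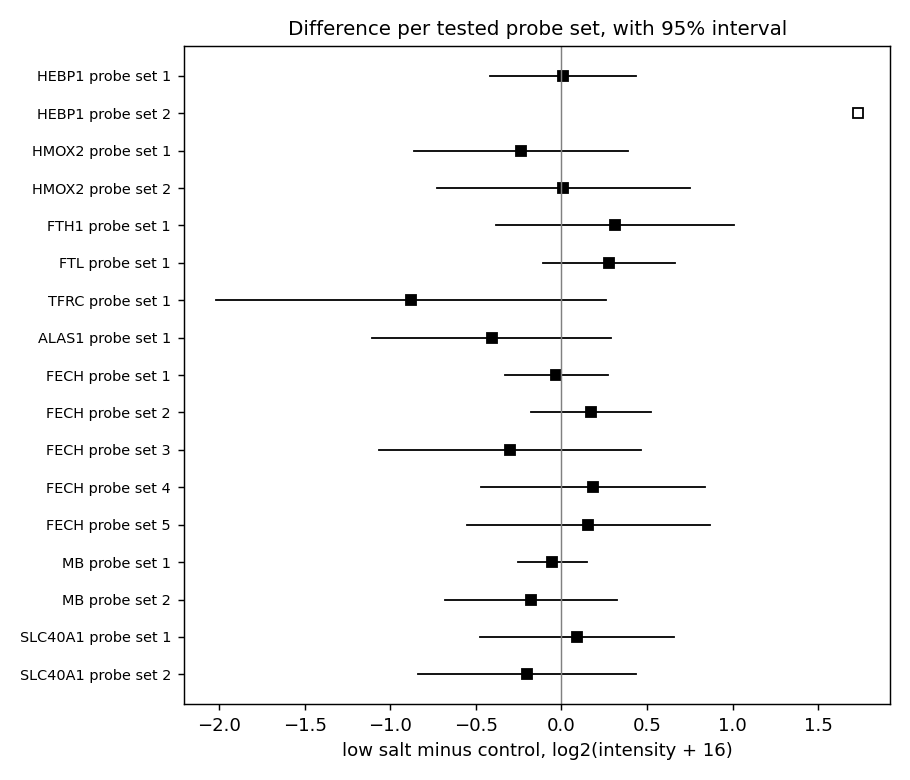
Difference between low salt and control (log2, low salt minus control) for the 17 tested probe sets, numbered from the brightest within a gene, with 95% intervals from limma. The open square is the HEBP1 probe set chosen for its difference of 1.73, drawn with no interval, and all 16 other intervals include 0.

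No gene of the wider heme and iron pathways passed the test. In 7 lists of pathway genes there are 110 genes besides the 10 above, of which 90 are named on the array and 81 were tested through their brightest probe set. By limma 0 passed an adjusted p of 0.05, against 0.281% of 11381 genes, and the methods' t-test called 0. At an unadjusted p under 0.05, 5 genes were higher and 0 lower by limma, where 5.57% of all genes were higher and 4.89% lower. The methods' t-test had 4 of the 81 genes there, against 2871 of all 28616 tested probe sets. In 3 of the 81 the groups did not overlap, all higher, against 5.66% of all genes. Of the 81, 58 (71.6%) had a difference above 0 and 23 below, where 56.0% of all genes stood above 0. The median was 0.12 beside 0.05 for all genes. As deposited, 45 stood above 0 and 36 below, with a median of 0.03 beside -0.13 for all genes, and with array medians set equal 74 and 7, with 0.46 beside 0.30. The medians of the single lists moved likewise. As deposited, those of heme breakdown (-0.02), iron uptake (-0.13) and HMOX1 regulators (-0.03) turned below 0 and that of globins above it (0.02), while heme synthesis stood at 0.07, iron sensing at 0.05 and iron-sulfur assembly at 0.15. With array medians set equal, all 7 lay from 0.30 to 0.58.

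Heme synthesis (11 of 14 genes tested, ALAS1 and FECH among them) had a median of 0.21. ABCB6, a porphyrin transporter, read 209, 291 and 154 in controls 1, 3 and 4 and 481, 326, 337 and 299.9 in low-salt 1 to 4. Its groups did not overlap, and it differed by 0.78 ± 0.27 (SE, limma adjusted p = 0.320), with the other ABCB6 probe set at 0.50. Heme breakdown, binding and transport (12 of 16 tested) had a median of 0.07. Here BLVRB, a biliverdin reductase that acts after heme oxygenase, differed by 0.86 ± 0.31 (SE, limma adjusted p = 0.339). Its other probe sets went the other way, at -0.43 each, and 1 of these was too dim to test. The tested one of these was the brighter in controls, with a mean of 6.45 against 6.31. BLVRB thus enters the counts above through a probe set that is brightest only by its low-salt values.

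Iron uptake, storage and export (16 of 22 tested) had a median of 0.20. In this list 13 genes stood above 0 and 3 below, where 56.0% of all genes stood above 0. SLC39A8, a metal importer that carries iron as well as zinc and manganese, differed by 0.70 ± 0.28 (SE, limma adjusted p = 0.380). It was high on low-salt 2 (1098) and low-salt 4 (873) and at 430 and 490 on the others, against 362 to 404 in controls, and its other tested probe sets stood at 0.58 and 0.29. In iron sensing and the hepcidin axis (13 of 16 tested, median 0.06), hemojuvelin (HJV), a co-receptor that raises hepcidin, read 461, 523 and 549.8 in controls and 674, 952, 607 and 848 in low salt. It differed by 0.46 ± 0.20 (SE, limma adjusted p = 0.414), and its 2 other probe sets by 0.30 and -0.36.

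Iron-sulfur cluster assembly (17 of 24 tested) had a median of 0.14, and globins and other heme proteins (11 of 14 tested, MB among them) one of -0.02. Neither held a gene with an unadjusted p under 0.05. Among HMOX1 regulators and NRF2 targets (10 of 14 tested, median 0.08), KEAP1, which holds NRF2 in check, differed by 0.87 ± 0.36 (SE, limma adjusted p = 0.399). Over single arrays left out, KEAP1 ran from 0.61 to 1.25, BLVRB from 0.61 to 1.22 and ABCB6 from 0.55 to 1.03. The brightest probe sets of these 5 genes stayed above 0 in all 18 alternatives, and 0 passed in any. They were named for their p on these same values, so nothing is read from the kept sign. Other probe sets of BLVRB and HJV lie below 0, as given above. Red cell markers, which could bring heme genes into a tissue sample, were tested for 8 of 16 genes, with 0 at an unadjusted p under 0.05 and a median of 0.00. Adult globin genes are not named among the probe sets used here.

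**Figure D5:**
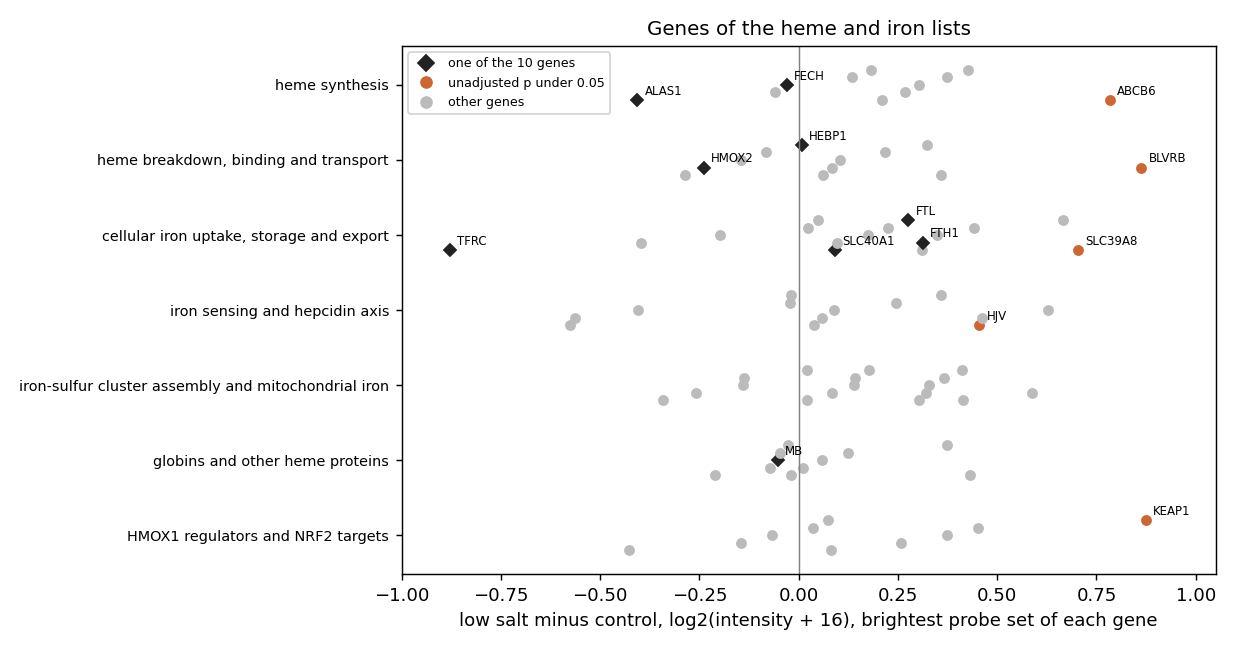
Difference low salt minus control (log2 scale) of the brightest probe set of each tested gene in the 7 pathway lists, with the 9 tested of the 10 genes as diamonds and those at an unadjusted p under 0.05 in orange. The orange genes lie at 0.46 to 0.87, all on the higher side, and TFRC is lowest at -0.88.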

How the data were processed

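The 7 arrays were labelled with biotin from Trizol-extracted total RNA, per the labels' protocols. The authors deposited 1 linear intensity per probe set, made with GCOS, software of the array maker, per the submitters' processing notes. Its version, the probe summary and the build are not stated there. The 2% trimmed mean was 150 on every array. From these, log2(intensity + 16) was computed and quantile normalized, since array medians differed by over 0.25. The 111 control probe sets and the third of the others with the lowest mean were left out, and 28616 were tested with limma 3.58.1 (trend) in R 4.3.3, with Benjamini-Hochberg adjustment over all of them. The fit was tested on simulated data.

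Of 42924 probe sets, 29254 have 1 gene symbol in the platform annotation, 439 several and 13231 none. All 10 genes matched the UU_Cfam_GSD_1.0 gene table by gene number, which served for names only. Probe and transcript sequences were not used here. The genes and lists were chosen with earlier results of these data known. The naming rule took all probe sets of the 10 genes, up to 4 genes a list at an unadjusted p under 0.05, and the 5 genes most like HEBP1. The brightest probe set stood for each list gene. Alternatives were other offsets, scalings, filters, weights, tests, a replicate block, single arrays left out and, added after the data were seen, control 4 and low-salt 3 left out together. Replicate numbers 1, 3 and 4 occur in both groups, with correlations of deviations of 0.07, -0.26 and -0.18 between same-numbered arrays, so they were not taken as pairs. Array number limits the precision.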

Additional observations from a re-analysis of the deposited data

Results flagged for a closer look

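On the low-salt 3 array, ALAS1 lay at 8.50 on the normalized log2 scale, apart from 9.06 to 9.18 on the other low-salt arrays. On the same array the second brightest FECH probe set lay at 11.51, against 11.20 to 11.21 on the others, in the opposite direction. The gap to the nearest array was 0.830 and 0.965 of the range over the low-salt arrays, above Dixon's 95% limit for 4 samples. Of 23 such groups examined 2 were marked, where chance marks about 1 in 20. Control 4 lay close to low-salt 3 in both probe sets, at 8.39 and 11.43. The cause was not tested.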

How the results depend on the processing

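The difference of the dimmer HEBP1 probe set, for which the gene was chosen, is given as values. It was 2.67 with an offset of 1, 0.90 with 64, 1.45 as deposited, 1.73 without the filter, without the variance trend and by the methods' t-test, 1.80 with the replicate block and 1.54 without control 4 and low-salt 3. With single arrays left out it ran from 1.59 to 2.01. The count of member probe sets past the adjusted p, which is this probe set alone, was 1 in the fit of the report and 0 in 13 of 18 alternatives, those above among them (0 to 1 with single arrays left out), and nothing is read from it. The cause was not tested.

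Of all tested probe sets, 99 passed (11.1% of them higher). The count was 39 with an offset of 1, 165 as deposited, 27 without the filter, 19 without the trend, 177 with array weights, 4 by the methods' t-test, 27 with the replicate block and 377 without control 4 and low-salt 3. It ran from 21 to 290 with single arrays left out (21 lacking control 1, 41 lacking control 3, 290 lacking control 4, 24, 26, 90 and 21 lacking low-salt 1, 2, 3 and 4). With array medians set equal 23.7% of the calls were higher.

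Among the 16 other member probe sets none passed in any alternative, and small differences changed sign. As deposited, these were the dimmer HMOX2 (-0.39), the FECH probe sets 1, 4 and 5 counted from the brightest (0.10, -0.25 and -0.29) and the brighter SLC40A1 (-0.11). With array medians set equal they were ALAS1 (0.12), the brightest FECH (0.53) and both MB (0.27 and 0.42). With array weights the brighter HEBP1 turned to -0.053, with an offset of 64 the dimmer HMOX2 to -0.0024, and with the block the brightest FECH to 0.016. Without control 4 and low-salt 3 the brighter HEBP1 was at -0.0011 and the dimmest FECH at -0.13. The mean over probe sets turned FECH (0.037) and SLC40A1 (-0.057). Single arrays left out gave -0.11 to 0.13 for the brighter HEBP1, -0.19 to 0.31 for the dimmer HMOX2, -0.12 to 0.075 for the brightest FECH, -0.0099 to 0.35 for the dimmest FECH and -0.0095 to 0.26 for the brighter SLC40A1. The brighter TFRC probe set fell under the filter in some alternatives, such as without control 1, and was then not tested.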
